A study of Mus musculus with 6 samples.

Results

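S100a8 and S100a9 encode the subunits of calprotectin and were measured by 1 probe set each (10493831 for S100a8 and 10499861 for S100a9) on arrays of mouse ear skin. They are 2 of 19938 genes read through a probe set annotated with 1 gene symbol. They were picked by symbol, with earlier results of these data known. The skin came from 6 mice aged 10 to 12 weeks, with 1 mouse and 1 ear painted with FITC (fluorescein isothiocyanate, a reactive dye that sensitises skin) per array. In 3 mice, of genotype CLEC4C-DTR/+, the promoter of CLEC4C, active in plasmacytoid dendritic cells of humans, drives the diphtheria toxin receptor, and toxin kills cells that carry this receptor. The other 3 were littermate controls, labelled CLEC4C-DTR-, and no strain is stated in the labels. Arrays are called DTR 1 to DTR 3 and control 1 to control 3, after their replicate numbers. Diphtheria toxin (200 ng) was given to all 6 animals on days -1, 1, 3 and 5. FITC at 0.5% was applied to shaved abdominal skin on days 0 and 2 and to the right ear on day 6. No CLEC4C-DTR mouse without toxin and no unchallenged ear was analysed here, so the genotype and the effect of toxin in its carriers cannot be told apart.

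Calprotectin is a heterodimer of small calcium-binding proteins of the S100 family. It fills the cytosol of neutrophils, is carried by monocytes, and is also made by keratinocytes when the epidermis is inflamed or injured. Released calprotectin binds zinc and manganese and so starves microbes of metal, and it is known to signal to neighbouring cells through Toll-like receptor Tlr4.

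The genes are neighbours on chromosome 3, and no other gene lies between them in RefSeq's table of assembly GRCm38.p6. Their RefSeq start sites are read from opposite strands, S100a8 from the plus and S100a9 from the minus strand. The 250 bases before each start are shown because the genes changed together. They lie at chr3:90668821-90669070 on the plus strand for S100a8 and at chr3:90695722-90695971 on the minus strand for S100a9 (GRCm38.p6), and capitals mark the motif matches described next.
S100a8: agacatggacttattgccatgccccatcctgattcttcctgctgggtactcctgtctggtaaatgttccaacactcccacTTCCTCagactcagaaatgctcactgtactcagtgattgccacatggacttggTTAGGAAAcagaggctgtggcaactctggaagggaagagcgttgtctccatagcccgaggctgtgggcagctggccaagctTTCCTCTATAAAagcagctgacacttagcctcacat
S100a9: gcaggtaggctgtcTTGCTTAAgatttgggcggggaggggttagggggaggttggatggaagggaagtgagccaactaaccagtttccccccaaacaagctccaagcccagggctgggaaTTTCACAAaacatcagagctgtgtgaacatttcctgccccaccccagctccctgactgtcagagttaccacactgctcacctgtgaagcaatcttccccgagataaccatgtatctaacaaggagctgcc

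A script searched 5 motifs on both strands from 250 bases before to 50 bases after the start. The TATA box letters TATAAA begin 30 bases before the start of S100a8, and at base 1 after the RefSeq start of S100a9, just beyond the printed stretch. Which start of S100a9 is used in skin was not tested, and another start would shift its window. The letters TATAAA are held by 13.6% of 32851 RefSeq promoters of the same length. The core of C/EBP sites, TTNCNNAA, occurs once for S100a8, on the opposite strand, from 117 bases before the start. For S100a9 it occurs on the printed strand from 236 and from 130 bases before the start, and 40.7% of promoters hold it. The PU.1 core GAGGAA is found on the opposite strand for S100a8, from 170 and from 36 bases before the start, the latter directly next to the TATA box (28.3% of promoters). The letters of AP-1 (TGANTCA) and STAT (TTCNNNGAA) sites are not in either window, and 7.81% and 8.30% of promoters hold them. A match describes the letters alone.

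Both calprotectin genes were higher in CLEC4C-DTR skin, S100a8 by 3.06-fold and S100a9 by 2.80-fold. The log2 values of S100a8 were 12.82, 13.27 and 13.22 in DTR 1, 2 and 3, and 11.21, 11.50 and 11.75 in controls 1, 2 and 3. Those of S100a9 were 13.05, 13.42 and 13.38 in DTR 1, 2 and 3, and 11.61, 11.84 and 11.94 in the controls. For each gene the groups did not overlap, as in 33.0% of all genes, and DTR 1 was the lowest of its group. The gap from the lowest CLEC4C-DTR to the highest control value was 1.08 for S100a8 and 1.11 for S100a9 on the log2 scale.

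Mean log2 values of S100a8 were 13.10 ± 0.24 (SD, n = 3) in CLEC4C-DTR and 11.49 ± 0.27 (SD, n = 3) in control skin. The difference was 1.61 (SE 0.16, 95% interval 1.24 to 1.99, adjusted p = 0.00937 in the limma fit over all genes). For S100a9 the means were 13.29 ± 0.20 (SD, n = 3) and 11.80 ± 0.17 (SD, n = 3), a difference of 1.49 (SE 0.13, 95% interval 1.19 to 1.79, limma adjusted p = 0.00802). The 95% interval of the fold was 2.36 to 3.98 for S100a8 and 2.28 to 3.45 for S100a9, so both intervals lay above the 2-fold change that the study set as its threshold. In the same fit 5.01% of all genes rose at an adjusted p under 0.05, 4.31% fell, and 1.67% rose by at least 2-fold. By p-value S100a9 ranked 5 and S100a8 ranked 17 among the 19938 genes, while 115 genes that rose had a larger log2 difference than S100a8. An exact two-sided permutation test of each gene alone gave p = 0.1, the smallest that 3 against 3 arrays allow. Without moderation of variances across genes, limma's linear model gave an adjusted p of 0.146 for S100a8 and 0.139 for S100a9.

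**Figure D1:**
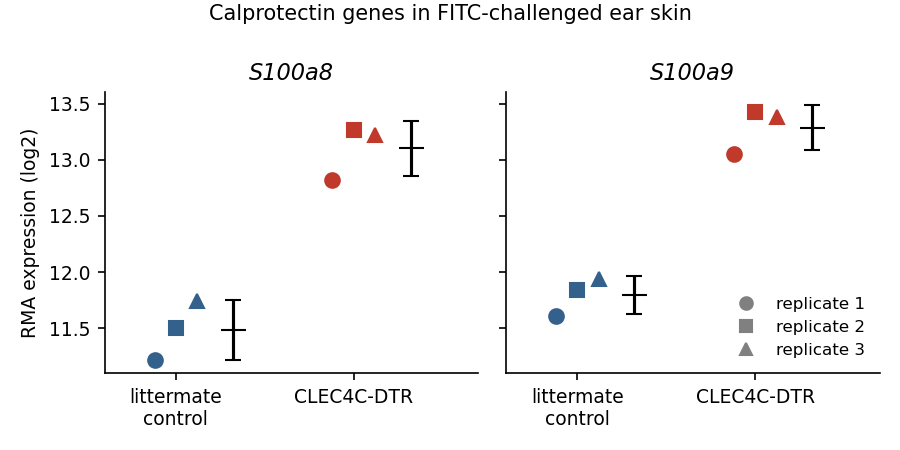
RMA expression (log2) of S100a8 and S100a9 in each of the 6 arrays. Symbols are replicates, and bars show the mean and SD of each group. All CLEC4C-DTR values lie above all control values, from 12.82 for S100a8 and from 13.05 for S100a9.

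The subunit genes moved by nearly the same amount in every array. Above the mean of the controls, S100a8 was 1.33, 1.78 and 1.73 higher (log2) in DTR 1, 2 and 3, and S100a9 was 1.25, 1.63 and 1.58 higher. In the controls S100a8 lay at -0.27, 0.02 and 0.26 and S100a9 at -0.19, 0.05 and 0.14 around their own means. The order of the 3 arrays was therefore the same for both genes in each group. The change of S100a8 exceeded that of S100a9 by 0.13 (log2), with a 95% interval of -0.05 to 0.31 (exact two-sided permutation test, p = 0.2), so a difference between the subunits was not shown. Both signals lie near the top of the array's range, at percentiles 99.7 (S100a8) and 99.8 (S100a9) of all genes, and the highest S100a9 value was 0.21 (log2) below the highest of any gene. Whether this limits the measured differences was not tested.

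The other S100 genes are small calcium-binding proteins too, most of them encoded in the same cluster and several made by epidermis. Of 14 other members measured, 1 rose and 1 fell, shares near the 5.01% and 4.31% of all genes. The remaining 12 did not pass. Of the 14, 6 had an unadjusted p under 0.05 in limma, against 5437 of all 19938 genes. The median difference was 0.05 against -0.04 over all genes (log2). S100a16, which is broadly expressed in epithelia, had log2 values of 9.82, 9.91 and 10.09 in CLEC4C-DTR skin and 9.40, 9.50 and 9.39 in controls. It rose by 0.51 (SE 0.09, 95% interval 0.29 to 0.72, limma adjusted p = 0.0212), and its interval ended below those of S100a8 and S100a9. S100b, known from Schwann cells, melanocytes and cartilage, had values of 8.28, 7.57 and 7.92 in CLEC4C-DTR and 8.50, 9.16 and 9.06 in control skin. It fell by 0.98 (SE 0.22, limma adjusted p = 0.0334).

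S100a4, a protein of fibroblasts and leukocytes, was the nearest to the threshold among the rest, with a difference of -0.32 (limma adjusted p = 0.0595) and groups that did not overlap. S100a3, a hair cuticle protein, differed by -0.35 (adjusted p = 0.0709) and S100a11, made by keratinocytes, by 0.23 (adjusted p = 0.130). S100a13 differed by 0.32 and S100a14, an epithelial member, by 0.20. S100a6 differed by 0.13, and S100a10, which binds annexin A2, by 0.11 (log2). S100g differed by -0.16 and S100z by -0.17, S100a5 by -0.044 and S100a1 by -0.0084. S100a16 passed without DTR 1 and without control 2, and S100b only without DTR 1. With any other array left out limma called 0 of the 14. In these fits 4 or 5 had an unadjusted p under 0.05, against 3788 to 4457 of all 19938 genes.

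**Figure D2:**
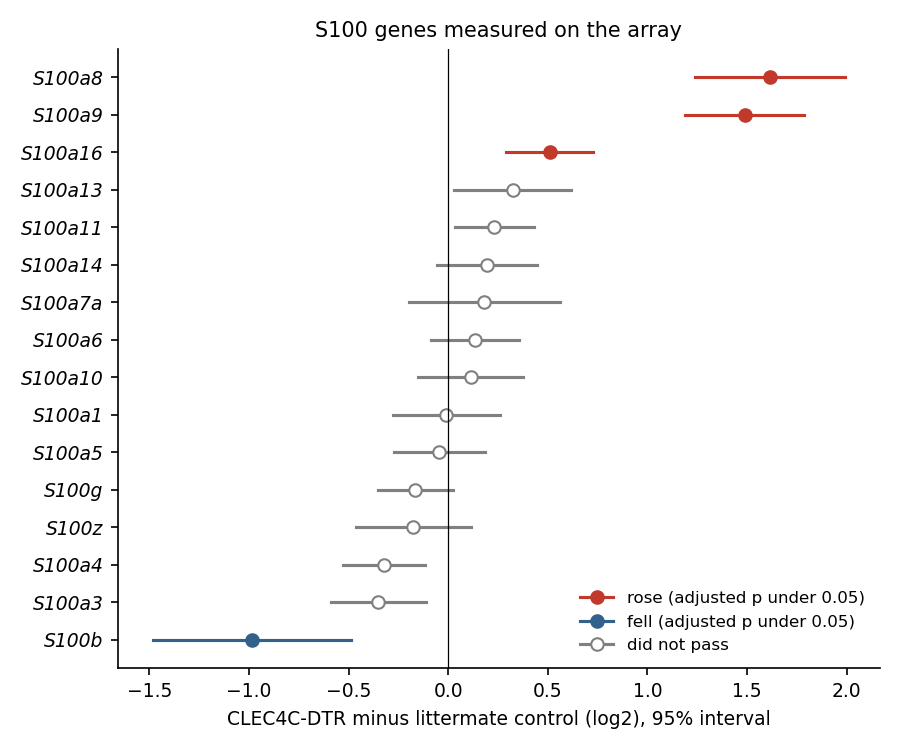
Difference between CLEC4C-DTR and littermate control skin (log2, x axis) with its 95% interval, not adjusted for the number of genes, for S100a8, S100a9 and 14 other S100 genes. Filled points passed an adjusted p of 0.05. The intervals of S100a8 and S100a9 start at 1.24 and 1.19, and those of the others end at or below 0.72.

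Of the 5 genes on each side of the pair in RefSeq's order, 5 were measured, 4 on the S100a8 side and 1 on the S100a9 side, and the other 5 are pseudogenes. Of the measured neighbours 1 rose, against 5.01% of all genes, and so few genes say little about position. S100a7a, the nearest gene on the S100a8 side and a relative of human psoriasin, had log2 values of 6.29, 6.96 and 6.42 in CLEC4C-DTR skin and 6.46, 6.32 and 6.34 in controls, and the groups overlapped (difference 0.18, SE 0.16, limma adjusted p = 0.525). On the S100a9 side Pglyrp4, a bactericidal peptidoglycan recognition protein of skin, had values of 7.59, 8.48 and 8.32 against 7.24, 7.07 and 7.24. It rose by 0.95 (SE 0.21, limma adjusted p = 0.0335). Among single arrays left out, it passed only without DTR 1. S100a4, S100a5 and S100a6, which follow S100a7a, did not pass. The fused-type S100 genes of the same chromosome region, which build the cornified envelope and hair sheath, gave 0 calls among 6 measured. Of these, 1 had an unadjusted p under 0.05 in limma, against 5437 of all 19938 genes. Flg2, filaggrin-2, differed by -1.72 (limma adjusted p = 0.0803), with overlapping groups. Without DTR 1 it differed by -2.24 and passed.

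Among receptors and adaptors for calprotectin, the Tlr4 complex was higher in CLEC4C-DTR skin. Among 12 measured genes there were 5 rises, 1 fall and 6 that did not pass, with a median difference of 0.36. Over all genes 5.01% rose and 4.31% fell. Tlr4 itself had log2 values of 8.39, 9.36 and 9.05 in CLEC4C-DTR and 7.76, 7.88 and 7.42 in control skin, with no overlap, and rose by 1.25 (SE 0.24, limma adjusted p = 0.0230). Its co-receptor Cd14 rose by 3.09 (SE 0.50, limma adjusted p = 0.0169), from 7.34, 7.41 and 6.83 in controls to 8.94, 10.98 and 10.94. Ly96, the part of the complex that binds lipopolysaccharide, rose by 0.59 and the adaptor Myd88 by 0.79 (log2). Cd33, a sialic acid-binding receptor of myeloid cells reported to bind S100A9, rose by 2.29.

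Cd36, a scavenger receptor for fatty acids, was the member that fell, by 0.81 (SE 0.09, limma adjusted p = 0.00937). Its values were 8.61, 8.49 and 8.68 in CLEC4C-DTR and 9.44, 9.28 and 9.49 in control skin. Ager, the receptor for advanced glycation end products and the other classical receptor of S100 proteins, had values of 6.56 to 6.74 in CLEC4C-DTR and 6.56 to 6.68 in control skin (difference -0.0020, limma adjusted p = 0.992). Bsg and Nptn, immunoglobulin-type proteins reported to bind S100A9 and S100A8, differed by 0.14 and -0.19 and did not pass. The 5 rises became 1 without DTR 2, and 0 without DTR 3, control 1 or control 3. Over all genes the 998 rises became 289, 70, 108 and 49 in the same fits. With each of the 6 arrays left out singly, Cd36 passed in 5 of 6 fits, failing without control 3.

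Among genes that regulate S100a8 and S100a9 transcription, Jun, Spi1 and Hif1a rose. The other 8 of 11 measured did not pass, and the median difference over all 11 was 0.62. Of all genes 5.01% rose. Jun, a subunit of AP-1, rose by 0.67 (SE 0.12, limma adjusted p = 0.0193), from 8.91, 8.71 and 8.55 in controls to 9.24, 9.53 and 9.40. Spi1, which encodes PU.1, rose by 0.94 (SE 0.17, limma adjusted p = 0.0217) and Hif1a, the oxygen-regulated factor, by 0.78 (SE 0.16, limma adjusted p = 0.0293). Among the C/EBP factors, which drive myeloid and inflammatory genes, Cebpd differed by 0.67 (limma adjusted p = 0.0597), Cebpb by 0.60, Cebpa by -0.28 and Cebpe by 0.05. None of these passed. The 3 rises became 5 without DTR 1 or control 2. Leaving out any of the other 4 arrays gave 0. There 6 to 9 members had an unadjusted p under 0.05 in limma, against 3788 to 4457 of all 19938 genes.

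Cytokines known to induce calprotectin in keratinocytes or myeloid cells rose in part. There were 8 rises and no fall among 15 measured, against 5.01% and 4.31% of all genes, with a median difference of 1.05. Il1a, the alarm cytokine of keratinocytes, had log2 values of 8.26, 10.27 and 9.52 in CLEC4C-DTR and 5.53, 6.73 and 6.54 in control skin, and rose by 3.08 (SE 0.50, limma adjusted p = 0.0169). Il1b rose by 2.43 and Osm, oncostatin M, by 2.34, both without overlap of the groups. Csf2, which encodes GM-CSF, had values of 5.53 to 6.04 against 4.91 to 5.11 and rose by 0.82 (SE 0.13, limma adjusted p = 0.0174).

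Also past the threshold were the IL-36 gamma gene, named Il1f9 in the RefSeq table, by 1.86, Il24 by 2.31, Tnf by 1.33 and Csf3 by 0.98, named after their values were seen. Il17a, a potent inducer in epidermis, differed by 0.64 and did not pass (limma adjusted p = 0.0804), although its groups did not overlap (5.48 to 6.23 against 5.12 to 5.45). In all, the groups did not overlap in 12 of the 15, against 33.0% of all genes. The count of rises was 10 without DTR 1, 6 without control 2, 2 without DTR 2 and 0 without any of the other 3 arrays. In these last 3 fits 11 to 13 had an unadjusted p under 0.05 in limma, against 3788 to 4447 of all 19938 genes.

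Partners of calprotectin in neutrophils and other metal-withholding proteins were also followed. Calprotectin hands arachidonic acid to the NADPH oxidase, the enzyme complex that makes superoxide. Of 6 measured members of that complex 4 rose, against 5.01% of all genes. The members that rose were Rac2 by 1.67 (SE 0.24, limma adjusted p = 0.0140), Cyba by 0.97, Ncf4 by 0.94 and Ncf1 by 0.83. Cybb, the catalytic subunit, had values of 8.01 to 8.21 in CLEC4C-DTR and 8.07 to 8.33 in control skin and did not pass (difference -0.024). The 4 rises stayed 4 in number without DTR 1 or control 2. They were 1 without DTR 2 and 0 in the other 3 fits. There 4 members had an unadjusted p under 0.05 in limma, against 3788 to 4447 of all 19938 genes.

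Of 10 metal-withholding proteins 2 rose, against 5.01% of all genes. Lcn2, a lipocalin that captures bacterial iron carriers, had values of 11.28, 12.04 and 11.59 in CLEC4C-DTR and 9.82, 10.13 and 9.78 in control skin. It rose by 1.72 (SE 0.19, limma adjusted p = 0.00937) and, as both calprotectin genes did, passed with any array left out. Slc39a14, a zinc and iron importer, rose by 1.11 (SE 0.18, limma adjusted p = 0.0166). Hp, haptoglobin, differed by 0.72 (limma adjusted p = 0.0572). Mt1, a metallothionein that binds zinc, differed by 0.44 (limma adjusted p = 0.0767). Ltf, the lactoferrin of neutrophil granules, differed by 0.31 and did not pass. The 2 rises became 4 without DTR 1, and 1 without DTR 3, control 1 or control 3.

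**Figure D3:**
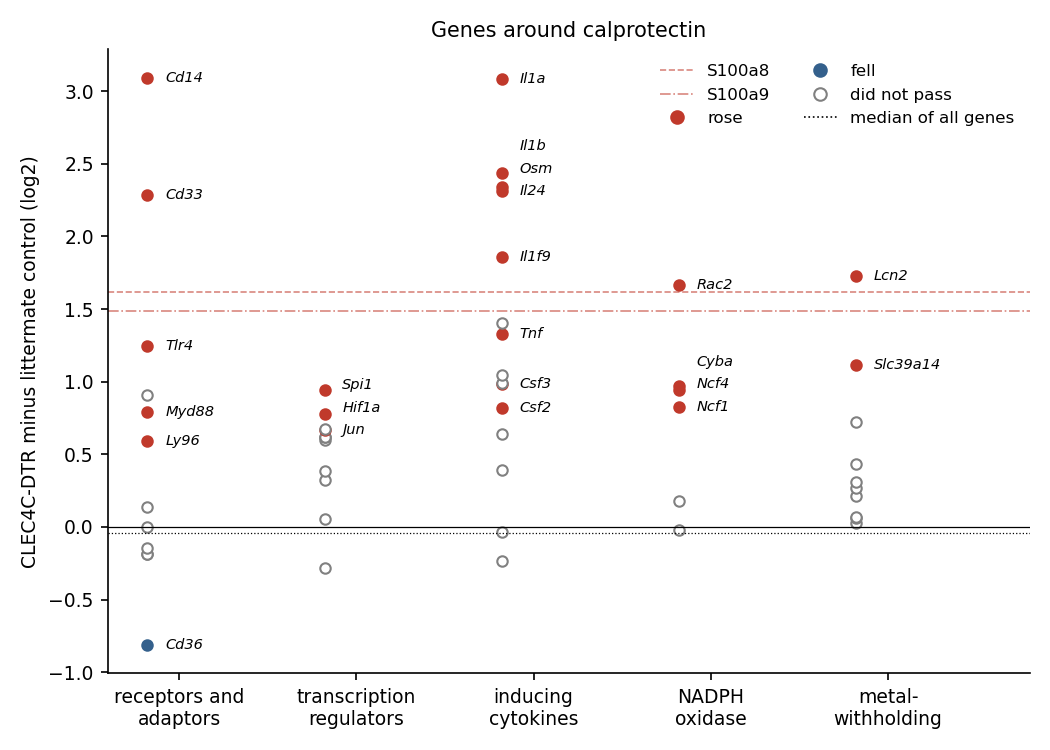
Difference between CLEC4C-DTR and littermate control skin (log2, y axis) for every measured gene of 5 lists around calprotectin. Filled and named points passed an adjusted p of 0.05, and dashed lines mark S100a8 (1.61) and S100a9 (1.49). Cd14 and Il1a stand highest at 3.09 and 3.08, and Cd36 is the gene of these lists that fell.

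Markers of the cell types that can make calprotectin moved with it to different degrees. In whole skin, more cells of a type and more RNA per cell cannot be told apart. Among 12 neutrophil markers there were 7 rises and no fall, against 5.01% and 4.31% of all genes, with a median difference of 2.03. Retnlg, a secreted product of neutrophils, rose by 2.92, the colony-stimulating factor receptor Csf3r by 2.37, the gelatinase Mmp9 by 2.27 and the chemokine receptor Cxcr2 by 2.21 (log2). Ly6g, which defines mouse neutrophils, rose by 2.78, from 4.60, 4.98 and 4.68 to 5.76, 8.63 and 8.19, and was named after its values were seen. Mpo, Camp and Elane, granule genes of neutrophil precursors in bone marrow, differed by -0.19, -0.084 and -0.0036 and did not pass. Their mean levels were low, at percentiles 21.5, 27.9 and 23.8 of all genes. Ngp, a further granule gene of the list at percentile 21.3, differed by 1.20 and did not pass either (limma adjusted p = 0.0689). The groups of Ngp did not overlap (4.65, 6.27 and 5.78 in CLEC4C-DTR against 4.32, 4.34 and 4.43 in control skin). The mean log2 level of the list was 7.05, 8.36 and 8.19 in CLEC4C-DTR and 6.40, 6.33 and 6.05 in control skin.

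Of 10 activated keratinocyte markers all 10 rose, with a median difference of 2.00. Over all genes 5.01% rose and 4.31% fell, the shares to set beside each list's count here. Among the 10 markers the stress keratins Krt6a and Krt17 rose by 1.81 and 0.92, and the cornified envelope genes Sprr1a and Sprr2d by 0.90 and 3.97. The list's mean level was 10.22, 11.29 and 11.11 in CLEC4C-DTR and 8.71, 8.87 and 8.54 in control skin. The 9 resting keratinocyte markers gave 1 fall, that of Krt15, a basal and hair follicle keratin, by 1.59, and no rise. Krt14, the keratin of basal epidermis, was at 12.03 to 12.22 in CLEC4C-DTR and 12.01 to 12.14 in control skin. Of 10 monocyte markers 4 rose, among them the receptors Fcgr1 by 0.91 and Csf1r by 0.57, and 1 fell, Cx3cr1, by 0.61. The list's mean level was 8.86 to 8.93 in CLEC4C-DTR and 8.44 to 8.82 in control skin.

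These counts changed with single arrays left out, as did the count over all genes. Over all genes the 998 rises became 1342, 289 and 70 without DTR 1, 2 and 3. Without controls 1, 2 and 3 they became 108, 730 and 49. Neutrophil rises numbered 9 without DTR 1, 5 without control 2, 2 without DTR 2, 1 without control 1 and 0 without DTR 3 or control 3. Activated keratinocyte rises numbered 5 without DTR 3, 6 without control 3, 7 without DTR 2 or control 1 or 2, and 10 without DTR 1. The 4 monocyte rises became 0 without DTR 2 or 3 or control 1 or 3.

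Of the remaining marker lists, Cd2 was the T cell gene that rose (1 of 7), Pdgfra the fibroblast gene (1 of 8), Pecam1 the endothelial gene (1 of 8) and Hdc, which neutrophils express too, the mast cell gene (1 of 8). Each of these genes had the smallest p of its list, and 1 call among 7 or 8 says little where 5.01% of all genes rose. All 7 T cell markers had higher values in CLEC4C-DTR skin, with a median difference of 0.36 (log2). Of them 6 had groups that did not overlap, against 33.0% of all genes, and 6 had an unadjusted p under 0.05 in limma. The fibroblast, endothelial and mast cell lists had 4, 2 and 1 of 8 at that p, against 5437 of all 19938 genes. Limma called 0 of 7 plasmacytoid dendritic cell markers (3 at an unadjusted p under 0.05) and 0 of 5 eosinophil markers (0 at an unadjusted p under 0.05). Over all 19938 genes 5.01% rose, 4.31% fell and 5437 had an unadjusted p under 0.05, so 0 calls in such short lists say little. Whether toxin removed plasmacytoid dendritic cells was not tested. All 8 muscle and cartilage markers had lower values in CLEC4C-DTR skin and 2 fell, the fast muscle light chain Mylpf by 1.06 and the cartilage proteoglycan Acan by 0.69. That list's mean level was 7.55 to 8.01 in CLEC4C-DTR and 8.13 to 8.56 in control skin. With arrays left out singly, Cd2 passed in 5 of 6 fits (not without control 3), Hdc and Krt15 in 3, Pdgfra and Mylpf in 2, and Pecam1 and Acan in 1. After a further quantile normalisation Pdgfra differed by 0.46 and did not pass (limma adjusted p = 0.0501), and the fibroblast list gave 0 rises and 1 fall, that of the collagen gene Col1a2, named after its values were seen. Muscle and cartilage falls numbered 4 without DTR 1, 1 without control 2 and 0 in the other 4 fits. Among plasmacytoid dendritic cell markers 2 rose without control 2 and 1 fell without DTR 1. The part of cell numbers or of the tissue sampled in the calprotectin difference was not tested.

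The order of arrays within each group was also compared, as a description with no test. DTR 1 was the lowest of its group for S100a8, S100a9, all 7 neutrophil and all 10 activated keratinocyte genes that rose, and for 744 (74.5%) of the 998 genes that rose in all. Its distance from the others was not alike. Above the control mean, DTR 1, 2 and 3 stood at 1.33, 1.78 and 1.73 for S100a8, at 0.79, 2.10 and 1.93 for the neutrophil list and at 1.51, 2.59 and 2.40 for the activated keratinocyte list (log2). Among controls, control 1 had the lowest and control 3 the highest value of both calprotectin genes. The same order was found in 63 (6.31%) of the 998 genes that rose, in 0 of the 7 neutrophil genes and in 1 of the 10 activated keratinocyte genes, counts too small to set these lists apart from the rest. Control 3 was the lowest control in 590 (59.1%) of the 998 genes, in 7 of the 10 activated keratinocyte genes and in 6 of the 7 neutrophil genes, for example at 7.76 for Cxcr2 against 9.17 and 9.30 in controls 1 and 2.

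**Figure D4:**
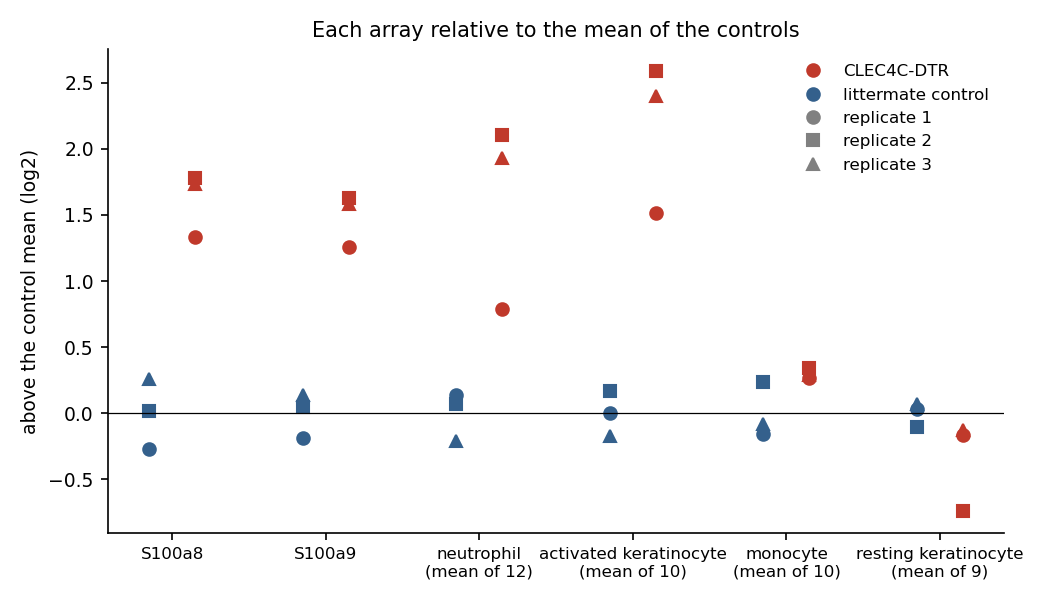
Each array's value above the mean of the controls (log2, y axis) for S100a8, S100a9 and the mean of 4 marker lists. DTR 1 (red circles) stands at 1.33 for S100a8 and at 0.79 for the neutrophil list, where DTR 2 and 3 stand at 2.10 and 1.93.

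The gene with the most similar pattern to S100a8 over the 6 arrays was S100a9, and the reverse. Likeness was the root mean square difference after each gene was centred on its own mean, which was 0.09 (log2) between the subunits and had a median of 0.82 between all other genes and the mean of both. The groups of arrays dominate this measure, and it says nothing on shared function. Next to the mean of the subunits came Ms4a4a, a membrane protein of the Ms4a family, at 0.14. It had log2 values of 9.81, 9.82 and 10.02 in CLEC4C-DTR and 8.10, 8.45 and 8.37 in control skin. Klk6, a serine protease of the kallikrein family, followed at 0.15 and Ms4a6d, another Ms4a member found in macrophages, at 0.16. They were followed by Lrrc25, Alox5ap, the helper protein of leukotriene synthesis, Gm10684, the growth factor gene Nrg1 and Arrdc4, at 0.21 to 0.22. Their differences between the groups ran from 1.19 for Gm10684 to 1.69 for Klk6.

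**Figure D5:**
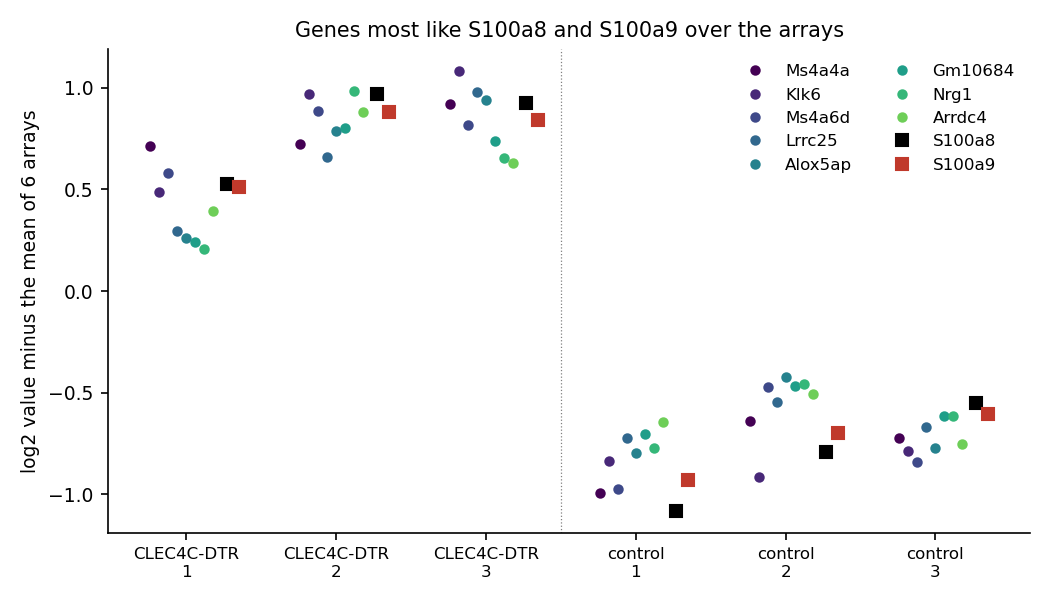
Log2 value minus the mean of the 6 arrays (y axis) for S100a8, S100a9 (squares) and the 8 genes closest to their mean (circles), in each array. The likeness of the 3 closest, Ms4a4a, Klk6 and Ms4a6d, is 0.14 to 0.16.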

How the data were processed

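Total RNA of FITC-challenged ear skin was hybridised to Affymetrix Mouse Gene 1.0 ST arrays, 3 per group, each from a separate mouse, per the labels. RMA (background correction, quantile normalisation, probe set summary) was run by the authors, per the design text, and the deposited values are on a log2 scale, as their range shows. The RMA software was not named in these sources. The submitters' processing notes list mm8, with no role given. Without a background measure, absence of a gene cannot be judged, and RMA removes any shift common to most genes.

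Of 35556 probe sets, 21789 have 1 gene symbol, 1621 several, and 12146 are unlisted. The brightest probe set per gene over the 6 arrays gave 19938 genes. CLEC4C-DTR was compared with control with limma 3.58.1 in R 4.3.3 (lmFit, eBayes), two-sided, without covariates, with Benjamini-Hochberg adjustment over all genes, and all adjusted p-values are from limma. No filter was set on low values, and no pair of arrays was identical. The step was tested on simulated data. The members and the 18 gene lists were chosen with earlier results of these data known. Named are all S100 genes, the 5 neighbours on each side, the 8 most similar genes and up to 4 of each list with the smallest p. Others are either the markers or members a sentence describes by their role. Each list was matched by symbol or synonym, and a wrong synonym match of Pi3 was removed after the data were seen. The main fit did not treat replicate numbers as pairs. Figures were drawn with matplotlib 3.10.9. Promoter sequences are RefSeq's (GRCm38.p6), matched by symbol for both genes.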

Additional observations from a re-analysis of the deposited data

How the results depend on the processing

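The precision is limited by 3 arrays per group, and p-values rest on moderation of variances. S100a8 and S100a9 kept their direction and passed under 14 of 15 alternatives each, with differences of 1.45 to 1.76 and 1.39 to 1.60 (log2) and adjusted p of 0.000790 to 0.0479 and 0.000406 to 0.0479 from limma. The exception was the fit without moderation, with the same differences (1.61 and 1.49) and adjusted p = 0.146 and 0.139. There limma called 0 genes of all 19938 (4387 at an unadjusted p under 0.05) and 0 members of each list around calprotectin and of the neutrophil, monocyte and activated keratinocyte lists, where 6 of 14 S100 genes, 8 of 15 cytokines and 7 of 12 neutrophil markers had an unadjusted p under 0.05.

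With all 35556 probe sets tested, 95 probe sets were called. Among the probe sets that stand for the 19938 genes, 49 rose, 21 fell and 4912 had an unadjusted p under 0.05 in limma. Both calprotectin genes were called, with 4 activated keratinocyte, 1 receptor and 1 metal-withholding gene. There were 0 calls among S100 family, transcription regulator, cytokine, NADPH oxidase, neutrophil and monocyte genes. With trend and robust moderation 4 cytokines and 3 neutrophil genes passed. With array weights 5 regulators and 1 fused-type gene passed. With the replicate number as a block, S100a8 and S100a9 passed (adjusted p = 0.00147 for both), and calls numbered 1 for fused-type, 4 for metal-withholding, 3 for T cell, 1 for plasmacytoid dendritic cell and 1 for muscle and cartilage genes, with no other list's count moved by over 1.5 times. Deviations of same-numbered arrays correlated over genes with r = -0.06, 0.22 and 0.10, and those of differently numbered arrays with r from -0.27 to 0.18. These values cannot decide whether the number marks a pair or a batch. The block gave p = 0.25 for the difference between the subunits (exact paired permutation test).

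With arrays left out singly, all calls ranged from 67 to 2617, S100 family calls from 0 to 2 and fused-type calls from 0 to 1. Calls ranged from 0 to 10 for cytokines, 0 to 9 for neutrophil and 5 to 10 for activated keratinocyte genes, 0 to 5 for regulators and monocyte genes, 0 to 4 for NADPH oxidase, 1 to 4 for metal-withholding and 0 to 7 for receptor genes. The difference between the subunits ranged from 0.08 to 0.18.

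Directions of genes that did not pass turned as follows. S100a1 was at 0.024 under median centring, 0.042 with array weights and -0.098 to 0.098 with single arrays left out. S100a10 was at -0.0033 and S100a5 at 0.011 after a further quantile normalisation, and S100a5 ran from -0.12 to 0.018 with single arrays left out. So did S100a7a (-0.020 to 0.32), Rptn (-0.17 to 0.94), the mast cell protease Cpa3 (-0.49 to 0.039) and the eosinophil peroxidase Epx (-0.050 to 0.16). The cause of these changes was not tested.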
